A study of Mus musculus with 24 samples.

Results

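Collagens are the trimeric proteins that give the extracellular matrix its tensile strength, and each of their chains is encoded by a separate gene. The collagen chain genes were taken as all genes of the deposited count table whose symbol consists of Col, a type number, the letter a and a chain number, which gave 44 genes of 55487. They were grouped by the assemblies that their proteins form, with 11 fibrillar chains, 8 basement membrane chains and 25 others. Of the 44, 30 passed the filter on low counts (10 fibrillar, 6 basement membrane and 14 other chains), and 14 did not: Col24a1, Col4a3, Col4a4, Col6a5, Col6a6, Col9a1, Col9a2, Col13a1, Col14a1, Col19a1, Col22a1, Col25a1, Col26a1 and Col28a1. None of those 14 exceeded 15 estimated counts in any library, and Col9a1 and Col13a1 were at 0 in all 24.

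Poly(A) RNA was sequenced from mouse embryonic fibroblasts (MEFs) of 2 genotypes under 3 treatments, with 4 libraries in each of the 6 groups. The WT groups were cells of wild type genotype given DMSO (the vehicle), MK-8722 (a direct activator of the energy-sensing kinase AMPK) or torin1 (an inhibitor of the growth kinase MTOR), and the AMPK KO groups, in which the study's methods describe both catalytic subunit genes, Prkaa1 and Prkaa2, as disrupted, received the same 3 agents. Each genotype was 1 cell line, WT at passages 12 to 15 and AMPK KO at passages 16 to 19, so that genotype, line and passage cannot be told apart. The labels give neither dose nor duration, and nothing says that the libraries of a group came from separately derived cells, so p-values measure the spread between these libraries.

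The libraries held 26900240 to 34192685 estimated counts, and RNA integrity numbers ran from 9.7 to 10. Prkaa1 still had 2046 to 2686 counts in the AMPK KO libraries, so counts per gene do not check the genotype label. Among fibroblast markers, Vim stood at 1466 to 5243 CPM (counts scaled by library size with TMM factors) and Fn1 at 1941 to 6837 CPM, whereas Pdgfra did not exceed 6.49 CPM and Thy1 did not exceed 2.28 CPM. Summed markers of epithelium (5 genes), endothelium (4) and immune cells (4) reached at most 6.87, 8.60 and 4.67 CPM. The sum of 8 fibroblast markers, carried by Vim and Fn1, moved with the groups. In DMSO libraries it ran from 7317 to 8105 CPM for WT and from 4028 to 4428 CPM for AMPK KO. The torin1 ranges were 11260 to 12568 and 6040 to 6506 CPM, in the same order. Mean Vim in WT was 3528 CPM with DMSO and 5043 CPM with torin1, and mean Fn1 was 3533 and 6334 CPM. Other WT means were lower with torin1 for S100a4 (161 against 196 CPM), Twist2 (27.8 against 36.9) and Prrx1 (190 against 202). They were higher for Pdgfra, Pdgfrb and Thy1. Between the genotypes in DMSO, Prrx1 had means of 202 and 22.6 CPM, whereas Pdgfra alone was higher in AMPK KO (0.627 and 1.16 CPM). The sum of 4 smooth muscle markers was 1728 to 2496 CPM in WT DMSO and 441 to 576 CPM in AMPK KO DMSO, a fall carried by Acta2 (means of 1162 and 491 CPM) and Tagln (853 and 19.3 CPM), whereas the defining markers Myh11 and Des did not exceed 0.691 and 3.19 CPM and had higher means in AMPK KO DMSO. Chondrocyte markers (4) summed to 11.1 to 12.4 and 2.55 to 2.90 CPM and osteoblast markers (4) to 47.6 to 67.3 and 23.9 to 29.1 CPM in WT and AMPK KO DMSO, with Sox9 at means of 11.5 and 1.55 CPM and Runx2 at 58.0 and 26.0 CPM, while Acan, Matn1, Bglap and Ibsp did not exceed 0.161 CPM. The remaining markers of these lists, Matn3 (chondrocyte) and Sp7 (osteoblast), were low and went the opposite way. Matn3 averaged 0.449 CPM with WT DMSO, against 1.19 CPM with AMPK KO DMSO. For Sp7 the averages were 0.0531 and 0.513 CPM, in the same order. The part of the cell type markers in the collagen differences was not tested. In bulk RNA, fewer cells that express a gene and less RNA in each cell cannot be told apart.

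Fibrillar collagens, led by type I with its α1 and α2 chains (Col1a1, Col1a2), are secreted as procollagen, trimmed by proteinases and packed into cross-linked fibres, and they are the main matrix product of fibroblasts. Type III and type V chains join those fibres, and the type V chains are known to control their diameter. Basement membrane collagens form sheets instead: type IV chains assemble in fixed combinations, most often Col4a1 with Col4a2, into a network under epithelia and around vessels and muscle. The remaining families bind to fibre surfaces (Col12a1, Col16a1), form beaded microfibrils (type VI), hexagonal nets (type VIII, type X), anchoring fibrils (Col7a1) or span the cell membrane (Col17a1, Col23a1).

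Example promoter windows are shown for Col8a1 (called with MK-8722), Col4a2 (lower with torin1 in both genotypes), and Col1a2, Col10a1 and Col4a6 (called between the genotypes). Each runs from 250 bases before the transcript start to 50 bases after it, is taken from RefSeq on GRCm38.p6 and is written 5′ to 3′ on the strand of the gene. Capitals mark matches, on either strand, to GGGCGG, known as the GC box, to CCAAT, which the factor NF-Y binds, to TATAAA, known as the TATA box, or to CACGTG, an E box bound by factors such as TFEB. The windows lie at chr16:57754688-57754987 (minus strand, Col8a1), chr8:11312555-11312854 (plus, Col4a2), chr6:4505368-4505667 (plus, Col1a2), chr10:34389731-34390030 (plus, Col10a1) and chrX:141474027-141474326 (minus, Col4a6).
Col8a1: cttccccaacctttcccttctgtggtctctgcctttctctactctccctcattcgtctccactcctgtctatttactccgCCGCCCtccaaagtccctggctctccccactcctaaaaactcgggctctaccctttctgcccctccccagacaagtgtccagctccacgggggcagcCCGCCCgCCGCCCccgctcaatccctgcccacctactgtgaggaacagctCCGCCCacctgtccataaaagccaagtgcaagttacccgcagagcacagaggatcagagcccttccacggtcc
Col4a2: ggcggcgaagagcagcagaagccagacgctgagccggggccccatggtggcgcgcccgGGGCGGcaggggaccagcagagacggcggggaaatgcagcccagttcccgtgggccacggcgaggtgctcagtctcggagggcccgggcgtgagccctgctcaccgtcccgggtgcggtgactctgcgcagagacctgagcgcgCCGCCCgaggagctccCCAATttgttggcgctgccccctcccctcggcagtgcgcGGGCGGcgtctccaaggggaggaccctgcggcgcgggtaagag
Col1a2: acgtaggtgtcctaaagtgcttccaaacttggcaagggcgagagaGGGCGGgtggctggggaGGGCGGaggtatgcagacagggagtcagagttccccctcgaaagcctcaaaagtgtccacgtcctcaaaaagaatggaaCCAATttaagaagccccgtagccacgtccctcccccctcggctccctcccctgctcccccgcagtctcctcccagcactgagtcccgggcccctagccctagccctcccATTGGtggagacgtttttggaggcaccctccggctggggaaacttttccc
Col10a1: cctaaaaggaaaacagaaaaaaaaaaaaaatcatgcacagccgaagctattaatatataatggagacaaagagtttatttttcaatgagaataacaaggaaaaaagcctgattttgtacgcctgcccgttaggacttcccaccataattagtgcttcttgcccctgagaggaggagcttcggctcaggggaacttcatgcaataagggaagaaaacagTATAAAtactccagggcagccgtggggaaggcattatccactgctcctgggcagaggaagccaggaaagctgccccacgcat
Col4a6: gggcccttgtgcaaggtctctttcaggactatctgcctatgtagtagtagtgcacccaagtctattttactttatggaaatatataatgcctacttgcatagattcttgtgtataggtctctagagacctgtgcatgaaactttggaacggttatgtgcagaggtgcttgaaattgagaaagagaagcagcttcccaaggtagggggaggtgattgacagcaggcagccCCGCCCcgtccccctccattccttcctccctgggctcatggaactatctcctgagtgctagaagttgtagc

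Of the collagen genes, 35 had 38 promoter windows in the RefSeq table. The GC box was found in 23 of the 38 (60.5%), against 35.7% of all 32851 windows of that length. The CCAAT motif was in 34.2% of collagen windows and 37.4% of all, and TATAAA in 13.2% and 13.6%. None of the 38 held CACGTG, which 7.15% of all windows held. Col10a1 held TATAAA just upstream of its start and no GC box, whereas Col8a1 held 4 GC box matches, all on the opposite strand. These are matches of letters and not tested sites.

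Several collagen genes are neighbours. Col4a1 and Col4a2 on chromosome 8 start back to back, and their annotated transcripts overlap by 22 bases on opposite strands (GENCODE on GRCm38), so the Col4a2 window also covers the Col4a1 start. Col4a6 and Col4a5 on chromosome X are likewise divergent, 1308 bases apart. Col3a1 and Col5a2 on chromosome 1 converge, with 24614 bases between them.

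Per unit length, in TPM (transcripts scaled to a fixed total in each library), Col1a1 had the highest mean over all libraries (473), followed by Col4a1 (376), Col1a2 (339), Col5a2 (218), Col5a1 (201), Col4a2 (162), Col18a1 (99.7), Col6a1 (87.6), Col8a1 (74.1) and Col12a1 (49.0). In WT DMSO, fibrillar chains summed to 2409 ± 584 TPM, basement membrane chains to 582 ± 18.1 TPM and the others to 293 ± 66.1 TPM (mean ± SD, n = 4), so that fibrillar chains made up 73.4% of collagen transcripts. In AMPK KO DMSO the fibrillar sum was 643 ± 41.0 TPM (34.1% of collagen transcripts), the basement membrane sum 922 ± 41.5 TPM (48.9%) and the sum of the others 319 ± 18.1 TPM (16.9%). The 4 libraries of one genotype did not overlap those of the other in the fibrillar and the basement membrane sums, and they did overlap in the sum of the others.

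**Figure D1:**
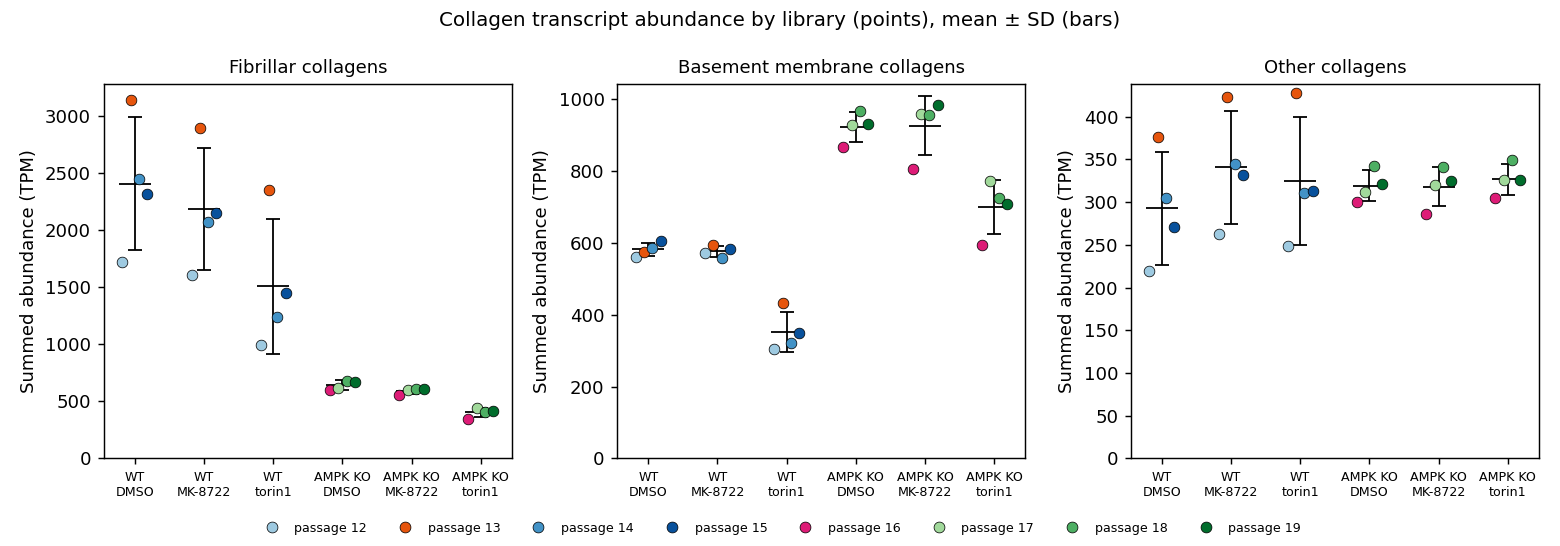
Summed TPM (y axis) of fibrillar, basement membrane and other collagen chains in each library (points, coloured by passage) of the 6 groups (x axis), with mean ± SD as bars. In DMSO, fibrillar chains span 1726 to 3148 TPM in WT and 596 to 682 TPM in AMPK KO, basement membrane chains span 562 to 604 and 865 to 966 TPM, and the WT libraries of passage 13 hold the highest fibrillar sum of each WT treatment.

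Libraries of some passages stood apart in these genes. In WT, passage 13 was the highest of the 4 passages under all 3 treatments for 17 of the 30 tested members, and passage 12 the lowest for 14. The order of passages was not counted over all tested genes, so such counts do not set collagen genes apart. Over all tested genes, deviations of the WT passage 13 libraries from their group means correlated at 0.23 to 0.26 between treatments. Col8a2, a chain of type VIII nets, had 3.86, 31.0, 12.8 and 7.75 CPM in WT DMSO at passages 12, 13, 14 and 15. Col2a1, the cartilage fibril chain, had 0.910, 5.05, 1.12 and 0.756 CPM in the same libraries. The pattern did not follow passage number, since passages 14 and 15 lay between the other 2 in the fibrillar sum. In AMPK KO, passage 16 was the lowest under all 3 treatments for 9 members, but it was the highest for 4, Col1a2, Col3a1, Col11a2 and Col6a3. Results are therefore also given with passage as a block, a fit that compares libraries of one passage, and without WT passage 13 or AMPK KO passage 16 where this changed them, alternatives of which the last 2 were chosen after the data were seen.

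**Figure D2:**
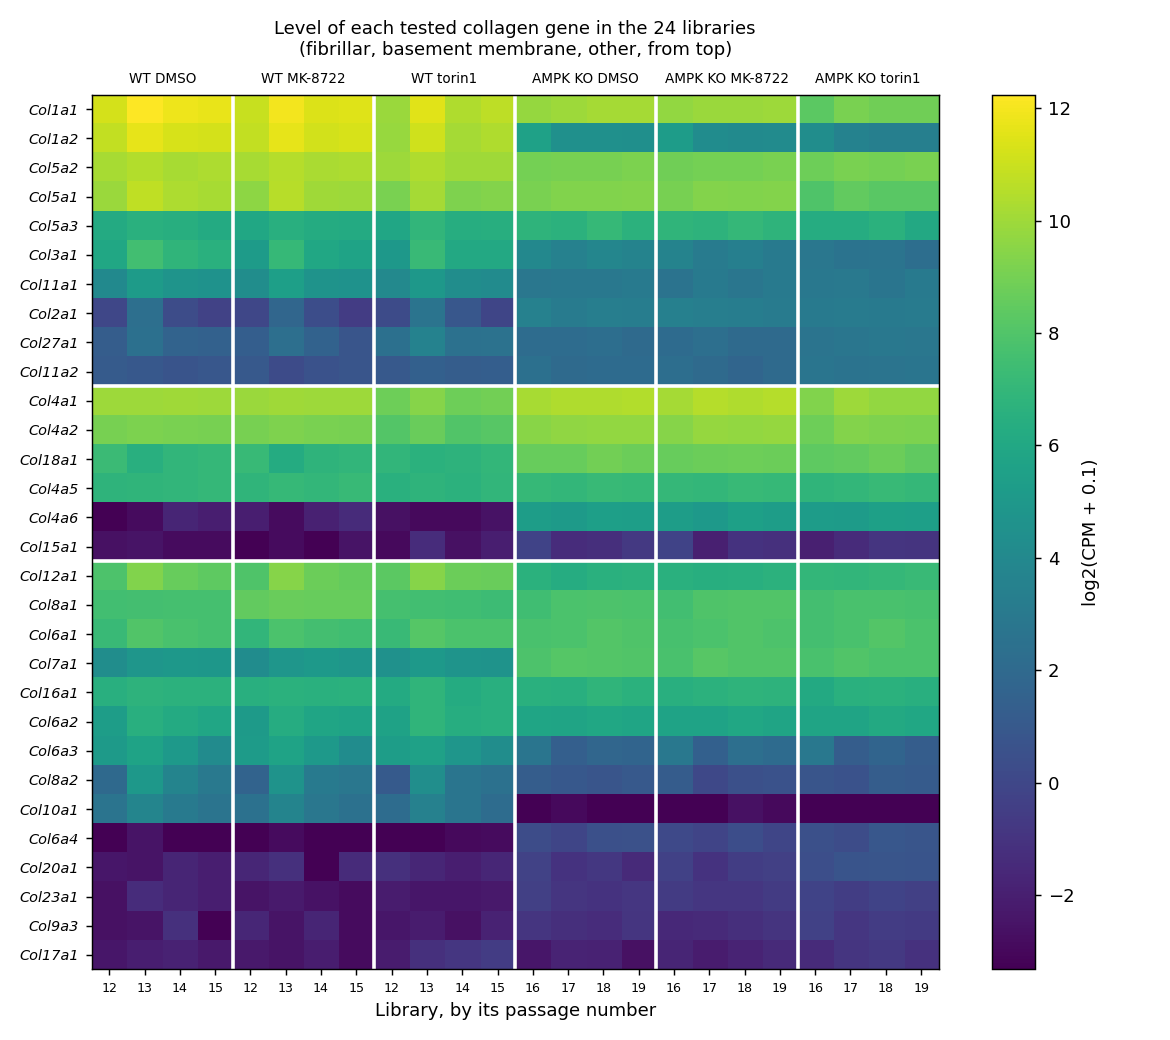
Level of the 30 tested collagen genes (rows) in 24 libraries (columns, ordered by passage within each of the 6 groups), as log2 of CPM plus 0.1. White lines divide the groups and, from the top, fibrillar, basement membrane and other chains. Col1a2 and Col10a1 are brighter in the 12 WT libraries than in the 12 AMPK KO libraries, Col4a6 shows the opposite, and Col8a1 is brighter in the 4 WT MK-8722 libraries than in the other WT libraries.

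The largest differences lay between the genotypes in DMSO. Chains of type I and type III fibres, the type V chains Col5a1 and Col5a2 and the type XI chain Col11a1 were lower in AMPK KO, with the type I α2 chain almost lost, but Col5a3, Col2a1 and Col11a2 were higher. Higher too were the basement membrane chains Col4a1, Col4a2, Col4a6, Col15a1 and Col18a1 and the anchoring fibril chain Col7a1. A gene was called where its adjusted p was under 0.05 and its fold change reached 1.2. By this rule 23 of the 30 tested members were called, 13 higher and 10 lower in AMPK KO. Among all 15828 genes tested, 56.9% were called in this comparison, 30.9% higher and 26.0% lower. A member read in one genotype alone, such as Col4a6 or Col10a1, passed the filter through that genotype and had to differ, so the count describes the members and supports nothing further. Of the fibrillar chains, 3 were called higher and 6 lower, with a median log2 fold change over the 10 tested of -1.15. Of the basement membrane chains, 5 were called higher and 0 lower, with a median of 1.17 over 6. Of the others, 5 were higher and 4 lower, with a median of 0.09 over 14, and the median of all tested genes was 0.02. Those 5 were Col7a1 and the low Col6a4, Col9a3, Col20a1 and Col23a1. The low ones had AMPK KO DMSO means of 1.16, 0.369, 0.466 and 0.485 CPM, in that order.

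Col1a2, which pairs with Col1a1 in the heterotrimer of type I collagen, had 1762, 3232, 2552 and 2467 CPM in WT DMSO at passages 12 to 15. In AMPK KO DMSO it had 47.3, 22.7, 22.5 and 21.3 CPM at passages 16 to 19. All WT libraries were thus far above all AMPK KO libraries, and the passage 16 library stood above its group. The log2 fold change was -6.46 ± 0.369 (SE, n = 4 per group, edgeR adjusted p = 1.6e-13) for a level 87.9-fold lower.

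Col1a1 had 2382, 4842, 3675 and 3404 CPM in WT DMSO and 893, 1017, 1131 and 1142 CPM in AMPK KO DMSO, in order of passage. The groups did not overlap, but the difference was far smaller than that of its partner, at a log2 fold change of -1.77 ± 0.259 (edgeR adjusted p = 1.7e-06). Per unit length, Col1a1 and Col1a2 therefore stood at a ratio of 1.19 ± 0.0526 in WT DMSO and 36.0 ± 13.7 in AMPK KO DMSO (mean ± SD of TPM ratios, n = 4). The 4 AMPK KO ratios ran from 16.2 at passage 16 to 47.0 at passage 19. The exact two-sided permutation test gave p = 0.0286 for this ratio, which is the smallest that 4 against 4 libraries allow, and an adjusted p of 0.082 over 20 ratio tests.

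The other fibre chains that fell in AMPK KO did so by less than Col1a2. Col3a1, the chain of homotrimeric type III collagen, had 60.4 to 183 CPM in WT DMSO and 11.3 to 15.2 CPM in AMPK KO DMSO, a log2 fold change of -3.10 ± 0.409 (edgeR adjusted p = 3.7e-07). The type V chains Col5a1 and Col5a2 had log2 fold changes of -1.07 ± 0.202 and -1.22 ± 0.0864, and the related Col11a1 of -1.77 ± 0.238, with no overlap between the groups. By contrast, Col5a3, the third type V chain, was higher at 102 to 139 against 73.7 to 93.8 CPM (log2 fold change 0.48 ± 0.154, edgeR adjusted p = 0.0079). Col2a1 and Col11a2, chains known from cartilage, were also higher, by 2.36 ± 0.501 and 1.29 ± 0.144 on the log2 scale. Their levels were low, and without WT passage 13 the WT level of Col2a1 was at most 1.12 CPM, for a log2 fold change of 3.41 ± 0.186. The Col11a2 call was lost with an offset for transcript length (0.43, edgeR adjusted p = 0.25). Col27a1 was not called (0.43 ± 0.277, edgeR adjusted p = 0.17), but it was without WT passage 13 (0.74 ± 0.141, edgeR adjusted p = 8.9e-05). The genotypes share no passage, so passage as a block cannot compare them within one and is not used for this difference.

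The tested basement membrane chains went the other way. The untested Col4a3 and Col4a4 did not, at levels near the floor. Their means were 0.121 and 0.210 CPM in WT DMSO, and 0 and 0.0150 CPM in AMPK KO DMSO. Col4a6, a chain of the α5α5α6 network of smooth muscle and some epithelia, was close to absent in WT DMSO, at 0 to 6 counts a library, and had 40.8, 36.3, 44.5 and 42.6 CPM in AMPK KO DMSO at passages 16 to 19. Summed over libraries, 5245 counts stood against 11, a ratio of 431 (95% exact interval 241 to 865, counting error alone). Col4a5, its divergent neighbour, had 111 to 131 CPM in WT DMSO and 125 to 144 CPM in AMPK KO DMSO, and these ranges overlapped (log2 fold change 0.18 ± 0.074, below the fold threshold). The network formers Col4a1 and Col4a2 were higher by 0.40 ± 0.113 (edgeR adjusted p = 0.0029) and 0.57 ± 0.115 (edgeR adjusted p = 0.00012). Col4a1 had 979 to 1019 CPM in WT DMSO and 1186 to 1399.9 CPM in AMPK KO DMSO, without overlap.

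Col18a1, whose C-terminal fragment is endostatin, had 158, 89.0, 120 and 130 CPM in WT DMSO at passages 12 to 15 and 390 to 483 CPM in AMPK KO DMSO. In contrast to the fibrillar chains, it was lowest at passage 13. The log2 fold change was 1.77 ± 0.151 (edgeR adjusted p = 2.5e-10). Col15a1, the related vessel-wall chain, was called higher at no more than 0.793 CPM.

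Among the remaining families, Col7a1, which anchors epidermal basement membrane to dermis, had 19.7 to 31.8 CPM in WT DMSO and 234 to 276 CPM in AMPK KO DMSO, a log2 fold change of 3.24 ± 0.143 (edgeR adjusted p = 1.3e-15). Col10a1, the marker chain of hypertrophic cartilage, had 6.31, 13.6, 8.18 and 6.23 CPM in WT DMSO, whereas AMPK KO DMSO held a single count in 4 libraries. Summed, 980 counts stood against 1, a ratio of 1083 (95% exact interval 194 to 42824, counting error alone). Col12a1, a fibre-surface chain, fell by 2.09 ± 0.261 on the log2 scale, from 237 to 619 CPM in WT DMSO to 79.9 to 102 CPM in AMPK KO DMSO. Col16a1, another fibre-surface chain, had overlapping ranges (log2 fold change -0.01 ± 0.111, edgeR adjusted p = 0.96).

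Type VI collagen, a heterotrimer of Col6a1, Col6a2 and Col6a3 in most tissues, was split. Col6a3 had 36.4, 51.1, 32.8 and 17.8 CPM in WT DMSO and 6.41, 2.56, 3.42 and 3.11 CPM in AMPK KO DMSO, a log2 fold change of -3.15 ± 0.409 (edgeR adjusted p = 3e-07). Col6a1 and Col6a2 were not called (0.22 ± 0.172 and -0.20 ± 0.225). The alternative chain Col6a4 had 2 counts in WT DMSO, both at passage 13, against 148 summed over AMPK KO DMSO, a ratio of 67.0 (95% exact interval 18.2 to 558). Type VIII was split too, since Col8a2 was lower, at a log2 fold change of -2.82 ± 0.661 (-2.05 ± 0.393 without WT passage 13, whose DMSO library had 31.0 CPM), and Col8a1 was not called (0.15 ± 0.0935, edgeR adjusted p = 0.15). Leaving out WT passage 13 gave 25 called members, beside 56.1% of all tested genes, and leaving out AMPK KO passage 16 gave 23, beside 55.4%.

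**Figure D3:**
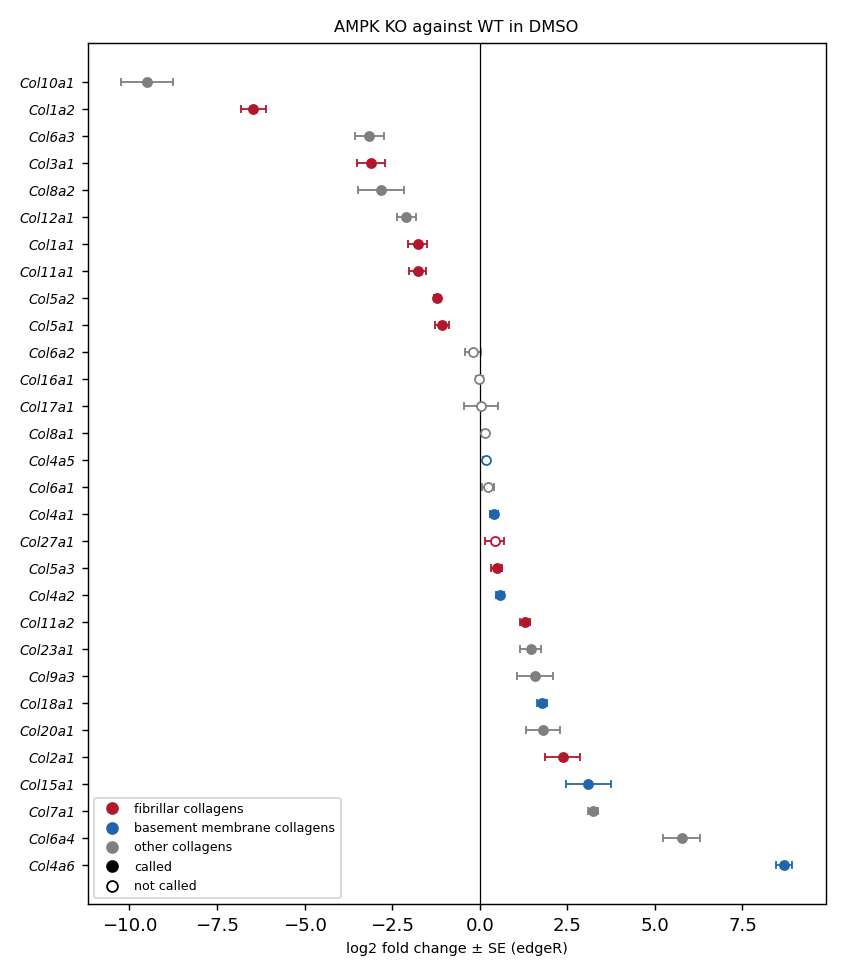
Log2 fold change ± SE (x axis, edgeR) of the 30 tested collagen genes (y axis) in AMPK KO against WT, DMSO libraries, 4 per group. Filled points passed the calling rule. Points span -9.49 (Col10a1, whose size rests on 1 count in AMPK KO) to 8.69 (Col4a6, 11 counts in WT), with the called type I, III and V α1 and α2 chains left of 0 and the called basement membrane chains right of it.

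The MK-8722 comparison asks how collagen genes respond to AMPK activation. In WT a single collagen gene, Col8a1, was called, at a level 1.99-fold higher. No member was called in AMPK KO. Col8a1 encodes a short-chain collagen of the vessel wall and of Descemet's membrane in the cornea. It had 186, 195, 198 and 200 CPM in WT DMSO at passages 12 to 15 and 357, 407, 396 and 393 CPM in WT MK-8722. The lowest treated library thus stood far above the highest untreated one, and unlike most collagens the gene varied little between WT passages.

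The log2 fold change of Col8a1 in WT was 1.0 ± 0.094 (edgeR adjusted p = 2.5e-08), and within passages it ran from 0.94 to 1.07. In AMPK KO the gene had 175, 229, 237 and 225 CPM in DMSO and 184, 253, 263 and 256 CPM in MK-8722, at passages 16 to 19. These ranges overlapped, although each of the 4 passages was slightly higher with the drug, by 0.07 to 0.19 on the log2 scale. The log2 fold change was 0.14 ± 0.0933 (95% interval -0.05 to 0.34, edgeR adjusted p = 0.49). The difference between the genotypes was itself called, at -0.85 ± 0.132 on the log2 scale (edgeR adjusted p = 7.6e-05). With torin1, Col8a1 had 162 to 200 CPM in WT and 191 to 220 CPM in AMPK KO and was not called.

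In all, 1 of 30 tested members was called in WT with MK-8722, where 15.7% of all tested genes were, and 0 of 30 in AMPK KO, where 1.56% of all tested genes were. In AMPK KO, edgeR gave 0 members an unadjusted p under 0.05, and DESeq2 also called 0. Col8a1 alone was called in the interaction of MK-8722 with genotype, in which 12.8% of all tested genes were called. The median log2 fold change in WT was -0.21 over the fibrillar chains, 0.01 over the basement membrane chains and -0.12 over the others, beside 0.00 over all tested genes.

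Lower levels of some fibre chains appeared in WT once libraries of the same passage were compared. Col1a1 had 1963, 3964, 2729 and 2838 CPM with MK-8722 at passages 12 to 15, below the DMSO library of its own passage each time. Without a block its log2 fold change was -0.32 ± 0.252 (edgeR adjusted p = 0.39), and with passage as a block it was -0.32 ± 0.0932 and called (edgeR adjusted p = 0.011). Col1a2 did not share this in WT, at 1771, 3287, 2353 and 2497 CPM and a log2 fold change of -0.02 ± 0.286. In AMPK KO, Col1a1 had 830, 960, 951 and 993 CPM with MK-8722 at passages 16 to 19. Each passage was below its DMSO library there too, by 0.08 to 0.25 on the log2 scale. With the block, Col1a1 was not called in AMPK KO (-0.16 ± 0.0936, edgeR adjusted p = 0.31). Its interaction with genotype was not called either (0.16 ± 0.132, edgeR adjusted p = 0.43).

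Col3a1 had 36.6, 136, 61.5 and 51.6 CPM with MK-8722 and 60.4, 183, 118 and 95.5 CPM with DMSO in WT. Every passage was lower with the drug, by 0.43 to 0.94 on the log2 scale, while the group ranges overlapped. Its log2 fold change was -0.68 ± 0.364 without the block (edgeR adjusted p = 0.18) and -0.74 ± 0.0812 with it (edgeR adjusted p = 5.1e-07). Without WT passage 13 it was called too, at -0.87 ± 0.243 (edgeR adjusted p = 0.013), in a fit that called 2 members and 13.8% of all tested genes. Col5a1 and Col8a2 were the other 2 members gained with the block in WT, at -0.27 ± 0.0522 and -0.34 ± 0.116.

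With passage as a block 5 members were thus called in WT and 2 in AMPK KO, where 18.4% and 4.61% of all tested genes were. The 2 in AMPK KO were Col3a1 and Col1a2, at -0.41 ± 0.112 and -0.28 ± 0.0839 on the log2 scale. Col3a1 had 15.2, 11.3, 14.1 and 12.5 CPM with DMSO and 12.1, 8.91, 10.5 and 8.44 CPM with MK-8722 in AMPK KO, a decrease at every passage. The interaction with the block again called Col8a1 alone (-0.86 ± 0.0803, edgeR adjusted p = 2.1e-07), among 17.6% of all tested genes. A difference between genotypes in the Col3a1 response was not called.

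The other members among the 10 of highest TPM were not called with MK-8722, with or without the block. Col4a1 had a log2 fold change of 0.00 ± 0.113 in WT MK-8722 and 0.02 ± 0.113 in AMPK KO MK-8722, and that of Col4a2 was 0.02 ± 0.115 and 0.02 ± 0.114. Those of Col5a2 were, in the same order, 0.04 ± 0.0851 and -0.09 ± 0.0854, and those of Col18a1 were -0.13 ± 0.15 and 0.00 ± 0.146. Col6a1 was at -0.21 ± 0.173 and -0.04 ± 0.171, and Col12a1 at 0.13 ± 0.248 and -0.0005 ± 0.256. In WT, Col6a1 was lower and Col12a1 higher than DMSO at each of the 4 passages. With passage as a block their values there were -0.22 ± 0.0297 (edgeR adjusted p = 9.1e-06) and 0.13 ± 0.0478 (edgeR adjusted p = 0.041). Both missed the fold threshold alone.

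**Figure D4:**
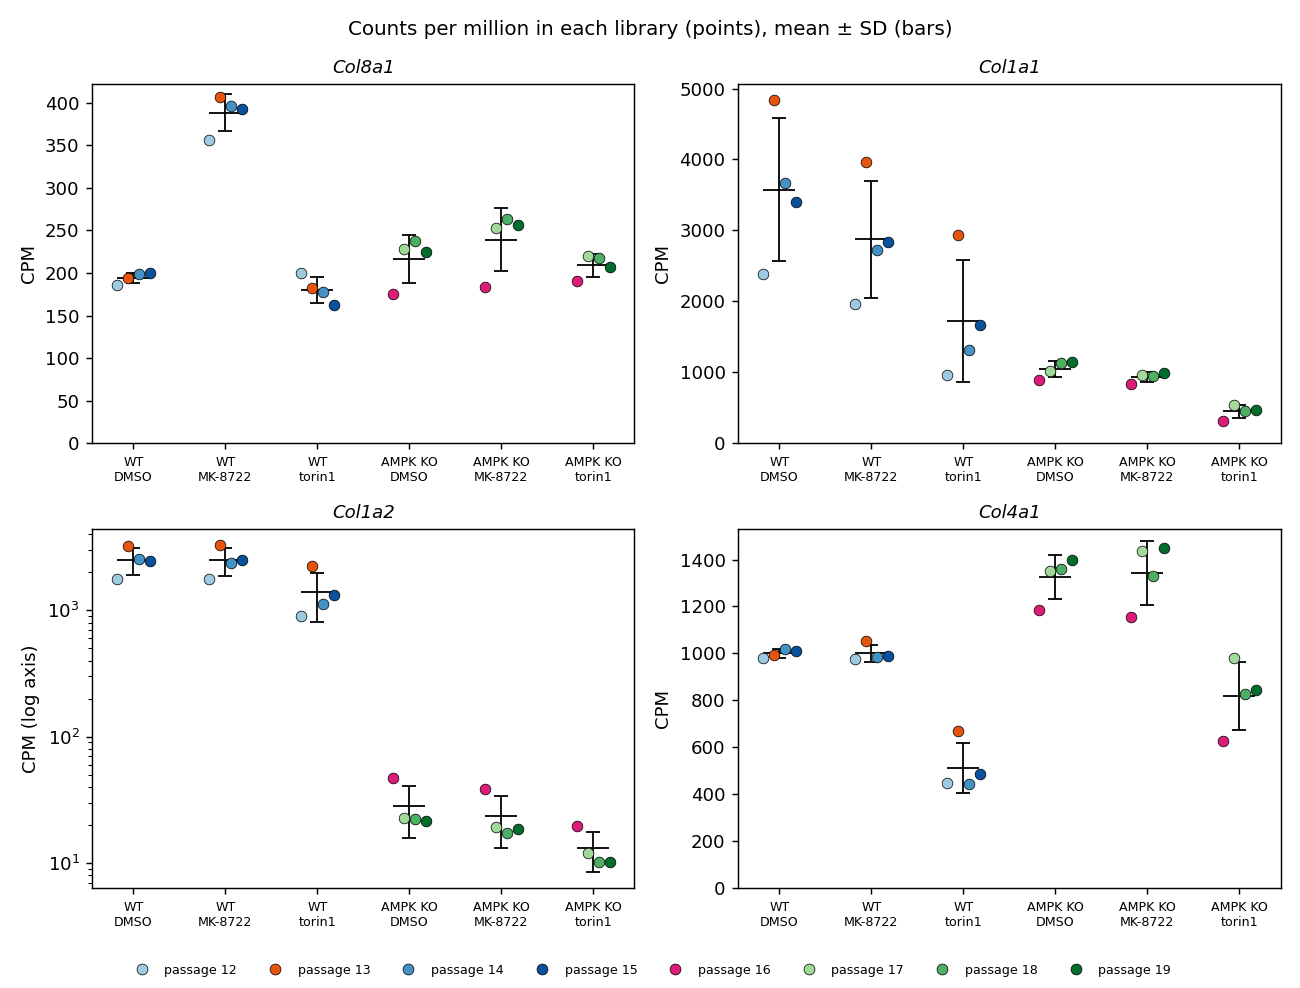
CPM (y axis, logarithmic for Col1a2 and starting at 0 otherwise) of Col8a1, Col1a1, Col1a2 and Col4a1 in each library (points, coloured by passage) of the 6 groups (x axis), with mean ± SD as bars. Col8a1 runs from 357 to 407 CPM in WT MK-8722 and from 162 to 263 CPM in the other 5 groups, Col1a1 and Col4a1 are lowest under torin1 within each genotype, and Col1a2 does not exceed 47.3 CPM in AMPK KO.

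The torin1 comparison asks how collagen genes respond to MTOR inhibition. Of the 10 collagen genes with the highest TPM, 5 fell in both genotypes, namely Col1a1, Col1a2, Col5a1, Col4a1 and Col4a2, and the other 5, Col5a2, Col18a1, Col6a1, Col8a1 and Col12a1, were called in neither. Beside them, the fibrillar chain Col27a1 was called higher with torin1 in WT and just missed the threshold in AMPK KO. The transmembrane chain Col17a1, a hemidesmosome component, was called higher in both genotypes. In WT, 2 members were called higher and 5 lower, 7 of 30 in all, where 47.6% of all tested genes were called, 26.6% higher and 21.1% lower. In AMPK KO, 3 were higher and 7 lower, 10 of 30, where 43.5% of all tested genes were called, 25.9% higher and 17.6% lower. The median log2 fold change in WT was -0.24 for fibrillar, -0.50 for basement membrane and -0.06 for other chains, and in AMPK KO -0.37, -0.36 and 0.02, beside medians over all tested genes of 0.04 and 0.06. The DMSO libraries of each genotype served for both drugs.

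Col1a1 had 957, 2941, 1319 and 1667 CPM in WT torin1 at passages 12 to 15, against 2382, 4842, 3675 and 3404 CPM in DMSO. The passage 13 library with torin1 exceeded the passage 12 library with DMSO, so the groups overlapped, but each passage fell, by 0.72 to 1.48 on the log2 scale. The log2 fold change was -1.05 ± 0.254 (edgeR adjusted p = 0.00096). In AMPK KO it had 319, 545, 459 and 475 CPM with torin1 and at least 893 CPM with DMSO, a log2 fold change of -1.22 ± 0.256 (edgeR adjusted p = 0.00028).

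Col1a2 had 901, 2223, 1118 and 1329 CPM in WT torin1, a log2 fold change of -0.85 ± 0.288 (edgeR adjusted p = 0.014). Leaving out 1 of 3 single libraries ended this call, with adjusted p of 0.05 without the DMSO passage 13 library, 0.055 without the torin1 passage 14 library and 0.053 without the torin1 passage 12 library. With passage as a block it was called at -0.89 ± 0.0658. In AMPK KO, where little of it was left, it had 19.8, 11.9, 10.2 and 10.3 CPM with torin1 and 47.3, 22.7, 22.5 and 21.3 CPM with DMSO, a log2 fold change of -1.13 ± 0.337 (edgeR adjusted p = 0.0063).

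Col5a1 fell by 0.81 ± 0.201 on the log2 scale in WT (edgeR adjusted p = 0.0013) and by 1.01 ± 0.202 in AMPK KO (edgeR adjusted p = 0.00015). It had 542, 1141, 613 and 662 CPM with torin1 in WT and 247, 357, 302 and 312 CPM in AMPK KO. Its partner Col5a2 had 982 to 1323 CPM with torin1 in WT and 450 to 557 CPM in AMPK KO and was not called in either genotype (-0.20 ± 0.0851 and -0.06 ± 0.0854). In WT it was lower at all 4 passages, by 0.05 to 0.29, and it was called without the torin1 library of passage 13 (-0.31, edgeR adjusted p = 0.0016). That fit kept the DMSO library of passage 13, the highest WT passage for Col5a2 under each treatment. Col5a2 was not called when passage 13 was left out of all treatments. With passage as a block it stayed below the fold threshold (-0.20 ± 0.0352). The Col5a1 to Col5a2 ratio of TPM in AMPK KO was 1.15 ± 0.0565 with DMSO and 0.612 ± 0.0359 with torin1 (n = 4), without overlap, at an exact permutation p of 0.0286 and an adjusted p of 0.082.

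Col3a1 and Col5a3 were called lower in AMPK KO, at -1.15 ± 0.465 (edgeR adjusted p = 0.039) and -0.49 ± 0.153 (edgeR adjusted p = 0.0092). Col3a1 had 7.13, 5.91, 6.16 and 4.85 CPM with torin1 there, all below the 11.3 to 15.2 CPM with DMSO. Its call was lost without passage 16 (-1.22, edgeR adjusted p = 0.087) and when any library but the DMSO passage 17 library was left out, at adjusted p of 0.051 to 0.075. With passage as a block it was called in both genotypes, at -0.61 ± 0.0802 in WT and -1.14 ± 0.121 in AMPK KO.

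Col4a1 and Col4a2 fell together. In WT torin1, Col4a1 had 446, 671, 446 and 489 CPM and Col4a2 had 270, 407, 257 and 288 CPM, against at least 979 and 527 CPM with DMSO. Neither gene's torin1 and DMSO libraries overlapped, and the passage 13 library was the least reduced. The log2 fold changes were -0.96 ± 0.114 (edgeR adjusted p = 1.1e-07) and -0.83 ± 0.116 (edgeR adjusted p = 1.2e-06). In AMPK KO, Col4a1 had 625, 981, 826 and 843 CPM and Col4a2 had 444, 647, 591 and 582 CPM with torin1, at log2 fold changes of -0.69 ± 0.114 and -0.51 ± 0.115. Col4a5, Col4a6 and Col18a1 were not called with torin1 in either genotype. Col18a1 had 97.0 to 126 CPM in WT torin1 and 331 to 424 CPM in AMPK KO torin1 (-0.14 ± 0.15 and -0.21 ± 0.146).

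Col12a1, the fibre-surface chain, had 97.4, 79.9, 94.1 and 102 CPM with DMSO and 128, 122, 133 and 147 CPM with torin1 in AMPK KO at passages 16 to 19. The groups did not overlap, and each passage was higher with torin1, by 0.39 to 0.61 on the log2 scale. The log2 fold change of 0.51 ± 0.255 was not called (edgeR adjusted p = 0.095), whereas it was with passage as a block (0.51 ± 0.0503, edgeR adjusted p = 3.1e-08) and in a fit of the compared libraries alone (0.46, edgeR adjusted p = 0.00013). In WT torin1 it had 326, 691, 435 and 407 CPM, a log2 fold change of 0.23 ± 0.248. With passage as a block the WT value was 0.26 ± 0.0478 (edgeR adjusted p = 8.9e-05), just below the fold threshold. Col6a1 had 150 to 286 CPM in WT torin1 and 197 to 265 CPM in AMPK KO torin1, and these ranges overlapped those of DMSO (0.12 ± 0.172 and -0.09 ± 0.171).

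Of the rising members, Col27a1 had 5.24, 11.7, 5.41 and 5.73 CPM in WT torin1 and 2.26, 5.30, 2.98 and 2.81 CPM in WT DMSO. It rose at each passage, by a log2 fold change of 1.08 ± 0.271 (edgeR adjusted p = 0.0014). In AMPK KO it had 6.14 to 7.36 CPM with torin1 and 4.09 to 4.83 CPM with DMSO, without overlap. It missed the threshold there at 0.61 ± 0.261 (edgeR adjusted p = 0.051), rose at each of the 4 passages by 0.44 to 0.79, and was called with passage as a block (0.61 ± 0.104, edgeR adjusted p = 3.8e-05). A fit of the compared libraries alone called it too (0.56, edgeR adjusted p = 0.00021). So did edgeR fits without a filter on low counts (adjusted p = 0.036), with a replicate block (0.048) and with library size alone (0.031). The other alternatives left it uncalled. Col11a2 was called higher in AMPK KO at 0.51 ± 0.13 (edgeR adjusted p = 0.0019), with 6.06 to 6.64 CPM against 4.14 to 5.19 CPM. This call was lost with an offset for transcript length (0.61, edgeR adjusted p = 0.085), a fit that kept 1 of the 3 rises in AMPK KO. Col17a1 and Col20a1 rose at levels below 2 CPM: Col17a1 had at most 17 counts in any library, and Col20a1 was called in AMPK KO alone, from 0.262 to 0.732 CPM with DMSO to 1.26 to 1.62 CPM with torin1.

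Of the 30 members, 6 were called with torin1 in both genotypes, beside 34.0% of all tested genes. None was called for the interaction of torin1 with genotype in edgeR or DESeq2, where 7.07% of all tested genes were called, and 2 had an unadjusted p under 0.05. With passage as a block 14 members were called in WT (49.6% of all genes), 12 in AMPK KO (45.8%) and 7 for the interaction (11.8%). Those 7 had interactions, as AMPK KO minus WT on the log2 scale, of -0.61 for Col2a1, -0.56 for Col5a3, -0.53 for Col3a1, -0.46 for Col27a1, -0.30 for Col6a2, 0.33 for Col4a2 and 0.66 for Col8a2. A further library decided the WT count: without the WT torin1 library of passage 13 alone, 13 members and 47.2% of all tested genes were called, whereas leaving passage 13 out of all 3 treatments gave 9 members and 46.4% of all tested genes.

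**Figure D5:**
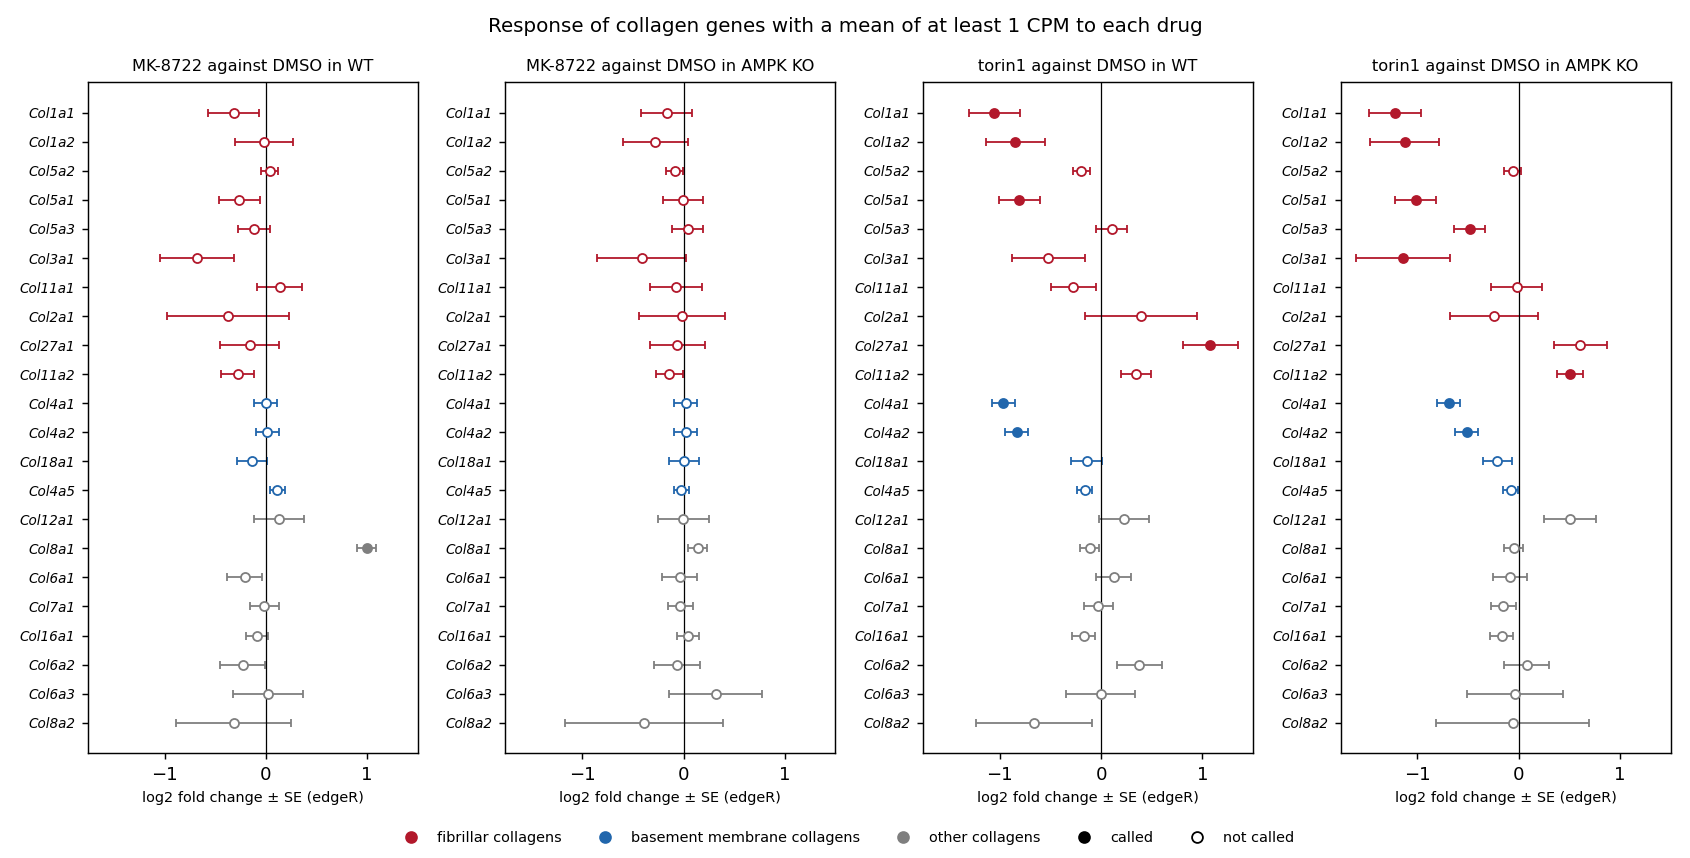
Log2 fold change ± SE (x axes, edgeR) of 22 collagen genes with a mean of at least 1 CPM (y axes) in the MK-8722 and torin1 libraries of each genotype relative to its DMSO libraries, 4 per group. Col10a1 and Col4a6, near 0 in one genotype, are left out, and filled points passed the calling rule. Col8a1 is the single filled point for MK-8722 in WT (1.0), and Col1a1, Col1a2, Col5a1, Col4a1 and Col4a2 are filled and left of 0 for torin1 in both genotypes.

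Ratios of partner chains were compared for Col1a1 to Col1a2, Col5a1 to Col5a2, Col4a1 to Col4a2 and Col6a1 to Col6a2 in 5 comparisons each. Of the 20 exact permutation tests, 7 reached the smallest p possible (0.0286), and 0 passed after adjustment. With that smallest p, a test could pass the adjustment over 20 only if most of them reached it. A failure to pass therefore does not show that a ratio was unchanged. The Col1a1 to Col1a2 ratio in WT was 1.19 ± 0.0526 with DMSO, 0.964 ± 0.0307 with MK-8722 and 1.01 ± 0.0769 with torin1, and neither drug's libraries overlapped those of DMSO. The Col4a1 to Col4a2 ratio was 2.65 ± 0.181 in WT DMSO, 2.27 ± 0.0771 in AMPK KO DMSO and 2.04 ± 0.0647 in AMPK KO torin1. The Col6a1 to Col6a2 ratio was 3.25 ± 0.350 in WT DMSO and 4.23 ± 0.235 in AMPK KO DMSO.

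Genes that make collagen chains into matrix were taken from a list of 31 biosynthesis and processing genes, 28 of which were tested. With torin1, 2 were called higher and 15 lower in WT, and 1 higher and 10 lower in AMPK KO, with medians of -0.30 and -0.19 on the log2 scale. Over all tested genes, 26.6% were higher and 21.1% lower in WT, against 25.9% and 17.6% for AMPK KO, with medians of 0.04 and 0.06. Serpinh1, the collagen chaperone HSP47, had 1517 to 1698 CPM in WT DMSO and 471 to 704 CPM in WT torin1 (-1.53 ± 0.0918), and it fell by 1.36 ± 0.0915 in AMPK KO. The prolyl hydroxylase subunits P4ha1 and P4ha2, which stabilise the triple helix, fell by 1.04 ± 0.0757 and 1.01 ± 0.0813 in WT and by 0.88 ± 0.0759 and 0.76 ± 0.0817 in AMPK KO. Loxl3 and Loxl4, of the cross-linking enzyme family, rose in WT by 0.56 ± 0.0904 and 0.29 ± 0.0846, and the prolyl 3-hydroxylase family gene P3h3 rose in AMPK KO by 0.35 ± 0.0761.

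In AMPK KO DMSO, 5 biosynthesis genes were called higher and 16 lower than in WT DMSO, with a median log2 fold change of -0.39, where 30.9% of all tested genes were higher and 26.0% lower. Lox, the main enzyme that cross-links fibres, had 133 to 276 CPM in WT DMSO and 3.04 to 7.35 CPM in AMPK KO DMSO (-5.37 ± 0.315, edgeR adjusted p = 2.5e-13). Loxl1 and the procollagen proteinase gene Tll1 were lower, at log2 fold changes of -3.65 ± 0.1 and -4.73 ± 0.253. Adamts14, which trims the amino end of procollagen, was higher by 2.32 ± 0.118, P3h2 by 1.29 ± 0.211 and Loxl4 by 0.75 ± 0.0841. With MK-8722, P4ha3 (-0.48 ± 0.164) and Pcolce (-0.28 ± 0.0925) were lower in WT, 2 of 28 tested, where 15.7% of all tested genes were called. None was called in AMPK KO in edgeR, where 1 had an unadjusted p under 0.05 and 1.56% of all tested genes were called. None was called for the interaction, where 5 had such a p and 12.8% of all tested genes were called.

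Of 10 collagen receptor genes, 8 were tested. With torin1, 1 was called higher and 2 lower in WT, and 1 higher and 1 lower in AMPK KO. Among all tested genes, 47.6% and 43.5% were called in these comparisons. Between the genotypes in DMSO, 0 receptors were called higher and 3 lower in AMPK KO, where 56.9% of all tested genes were called. Itga2, a collagen-binding integrin subunit, had means of 1.81 CPM with DMSO and 15.4 CPM with torin1 in WT (log2 fold change 3.08 ± 0.244), and the AMPK KO means were 1.96 and 7.82 CPM (1.99 ± 0.241). The tyrosine kinase receptor gene Ddr2 fell with torin1 in both genotypes (-0.76 ± 0.101 and -0.74 ± 0.101), and Itga10 fell in WT (-0.76 ± 0.238). In AMPK KO DMSO, Itga11, Mrc2 and Ddr2 were lower than in WT DMSO (-4.28 ± 0.811, -0.81 ± 0.0906 and -0.29 ± 0.1). With MK-8722, edgeR called 0 receptors in either genotype, where 15.7% of all tested genes were called in WT and 1.56% in AMPK KO. In AMPK KO, 4 receptors had an unadjusted p under 0.05.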

How the data were processed

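The authors processed the reads with the nf-core/rnaseq workflow (STAR aligner, mouse genome GRCm38, options for molecular identifiers), and Salmon is named in the submitters' processing notes. The gene table deposited by the authors gives estimated counts with no normalization. Their transcript tables, also deposited, give TPM beside such counts, and TPM was summed per gene. The study's batch removal was not repeated, since all libraries carry the same batch label. Groups came from the labels for genotype and treatment. Estimated counts were rounded, filtered with filterByExpr, scaled by TMM and fitted as 6 group means over 24 libraries with the edgeR quasi-likelihood test (edgeR 4.0.16, R 4.3.3). P-values were two-sided and adjusted by Benjamini-Hochberg over 15828 genes. Chain ratios were compared by exact permutation (scipy 1.17.1). Code was tested on simulated data. The members and lists were chosen with earlier results of these data known. The members named were the 10 of highest mean TPM and, per comparison, up to 3 called rises and 3 called falls with a mean of at least 1 CPM, and up to 3 of each from the other lists. Other members named were chosen after their values were seen. Libraries of one passage deviated together in part (correlations -0.01 to 0.37 over 24 pairs, 15 above 0.1). Libraries of a group differed by more than sampling noise (chi-square per degree of freedom of 3.52 to 26.5 over 36 pairs). Alternatives were other scalings, filters, thresholds and blocks, DESeq2 and leaving out each library.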

Additional observations from a re-analysis of the deposited data

Results flagged for a closer look

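Col8a1 was flagged because its response to MK-8722 differed between the genotypes, by -0.85 on the log2 scale. Ddr1, a collagen receptor gene, was flagged for the same drug at -0.41, with 0.15 ± 0.0993 in WT and -0.26 ± 0.0997 in AMPK KO, neither of which was called. For torin1, the differences of AMPK KO minus WT were 0.38 for P3h3, -0.31 for Colgalt1, 0.29 for Mia3, -0.61 for Loxl3 and -1.09 for Itga2. Colgalt1 moved in opposite directions, at 0.18 ± 0.0417 in WT and -0.13 ± 0.0417 in AMPK KO, both under the fold threshold.

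Single libraries far from the other 3 of their group were flagged in 9 of 107 gene and group combinations examined, where chance flags about 5%. In AMPK KO DMSO at passage 16, Col1a2 had 47.3 CPM, above the rest of its group, and Col11a2 had 5.19 CPM. The passage 16 library with MK-8722 had 38.7 CPM of Col1a2, above its group, and 184 CPM of Col8a1, under it. The passage 16 library with torin1 had 7.44 CPM of Col6a3. In WT at passage 13, Col2a1 had 5.05 CPM with DMSO and 6.38 CPM with torin1, and Col27a1 had 11.7 CPM with torin1. Col10a1 had 0.0324 CPM, a single count, in AMPK KO DMSO at passage 17. Thus 8 of the 9 lay in WT passage 13 or AMPK KO passage 16. A cause was not tested.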

How the results depend on the processing

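With passage as a block, called members numbered 5 for MK-8722 in WT, 2 in AMPK KO, 14 for torin1 in WT and 7 for its interaction with genotype, in place of 1, 0, 7 and 0, and no call was lost. MK-8722 in WT called 2 with an offset for transcript length and 2 without passage 13, and the torin1 interaction called 1 without a filter on low counts and 1 without passage 13. Leaving out each library in turn gave 1 to 2 for MK-8722 in WT, 6 to 13 for torin1 in WT, 0 to 2 for the torin1 interaction, 0 for MK-8722 in AMPK KO, 9 to 11 for torin1 in AMPK KO, 24 to 25 for genotype and 1 for the MK-8722 interaction. All other alternatives, DESeq2 among them, stayed within 1.5 times the counts given. Replicate numbers did not pair the libraries (correlations -0.20 to 0.25, 4 of 28 above 0.1), and a replicate block gave 11 for torin1 in AMPK KO and left the other 6 counts as they were. Of the chain ratios, 7 had an unadjusted p under 0.05, and estimated counts in place of TPM gave 0 after adjustment; ratio tests without 1 library or within passages were not run, since they cannot reach 0.05 after adjustment. Of 1675 single-gene values under alternatives, 13 lost and 11 gained a call, and none reversed. Scaling by library size alone moved the median of all genes to 0.15 for genotype, 0.14 for torin1 in WT and 0.12 in AMPK KO, and called Col8a1 higher in AMPK KO DMSO (0.29, edgeR adjusted p = 0.0038). Members under a few counts a library could not be judged at this depth.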
